A study of Mus musculus with 40 samples.

Results

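The aortic response to angiotensin II (Ang-II) was followed over time in mice whose smooth muscle lacked calcineurin, and the comparison described here set SM-Cn-/- aortas taken after 6 h of Ang-II against SM-Cn-/- aortas taken after 2 h. Its members were the 3 libraries of each of these groups, 6 of the 40 RNA-seq libraries of the series, and all 17402 genes of the table that held them. Calcineurin is a calcium-activated phosphatase made of a catalytic A subunit and a regulatory B subunit. In smooth muscle cells (SMCs), Ang-II acts through a Gq-coupled receptor that raises cytosolic calcium, and calcineurin then dephosphorylates NFAT transcription factors so that they enter the nucleus. Many of the genes that Ang-II raises first are immediate early genes, whose transcripts usually return towards their starting level within hours. The question was whether genes that respond early in aortas with calcineurin responded later in aortas without it.

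SM-Cn-/- mice were males homozygous for a floxed allele of the calcineurin B1 gene (Ppp3r1) and positive for Myh11-CreERT2, a tamoxifen-inducible recombinase driven by a smooth muscle promoter. By their labels, the Cn-Ctl mice of these libraries carried the floxed gene without the Cre, although the study's text uses the name more widely, also for mice with the Cre and no floxed allele. All mice, of both genotypes, received 1 mg of tamoxifen daily for 5 days at 10 to 12 weeks of age, and Ang-II was infused at 1 µg/kg/min by minipump 6 weeks later. Treated Cn-Ctl mice were kept for RNA only where systolic pressure exceeded 130 mmHg, while SM-Cn-/- mice treated in parallel were kept at any pressure unless deletion of the gene could not be shown by PCR of a piece of the aorta. Each library pooled 3 aortas stripped of adventitia and perivascular tissue, so the spread between libraries is a spread between pools. Untreated groups received no infusion. By the study's text, control mice were operated in the same way without receiving a minipump. It describes no operated group matched to 2 h or to 6 h. The 2 h and 6 h groups therefore also differ in time since anaesthesia and surgery, which cannot be told apart from time on Ang-II. Wild-type (WT) libraries, held in a separate table, came from C57BL/6J males that were untreated or infused with the same dose of Ang-II and, when infused, kept only above the same pressure limit.

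Reads recovered from the 6 libraries numbered 7.08 M, 7.19 M and 5.80 M at 2 h, and 7.57 M, 6.84 M and 2.73 M at 6 h. The third 6 h library was the shallowest of the 22 libraries fitted together, which ranged up to 10.25 M. Levels below are the deposited signal, close to reads per M, and log2 changes are differences of log2(signal + 0.5). Calls are those of limma at a Benjamini-Hochberg adjusted p below 0.05 over all 17402 genes. Libraries also differed in how genes of high and low GC content were represented. The median deviation of high-GC genes minus that of low-GC genes was -0.72, -0.56 and 0.18 (log2) in the 2 h libraries and 0.06, 0.31 and 0.33 in the 6 h libraries. Replicates 1 and 2 at 2 h lay below the 3 libraries at 6 h, and replicate 3 at 2 h lay within the range of those 3.

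The gene targeted for deletion did not separate the genotypes in these gene-level values, so the names SM-Cn-/- and Cn-Ctl rest on the labels and on the study's own PCR of recombination. Ppp3r1, which encodes the regulatory subunit calcineurin B1, measured 118, 93.5 and 70.1 in the SM-Cn-/- libraries at 2 h and 82.5, 41.8 and 45.3 at 6 h. In Cn-Ctl libraries its signal was 84.8, 86.4 and 134 at 2 h and 98.2, 116 and 48.1 at 6 h, so the groups overlapped. A count over the whole gene does not show which exons were read, and cells of the wall other than smooth muscle keep the gene. Rcan1, a calcineurin-binding regulator that NFAT induces, differed clearly by label. It measured 46.6, 31.7 and 55.3 in SM-Cn-/- aortas at 2 h against 368, 404 and 380 in Cn-Ctl aortas (log2 difference -3.13, SE 0.32, limma adjusted p = 3.6e-06). At 6 h the SM-Cn-/- libraries read 35.2, 28.6 and 12.7 for Rcan1, a change from 2 h of -0.88 that did not pass the test (adjusted p = 0.16). The catalytic subunit genes Ppp3ca (0.17, adjusted p = 0.56), Ppp3cb (-0.77, adjusted p = 0.081) and Ppp3cc (-0.33, adjusted p = 0.61) did not pass it either.

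Between 2 h and 6 h of Ang-II, 146 genes changed in SM-Cn-/- aortas, 0.839% of the genes tested. Of these 77 were higher at 6 h (0.442% of all genes) and 69 were lower (0.397%), and 143 were protein-coding. The risen genes gained 0.69 to 3.28 on the log2 scale and the fallen genes lost 0.62 to 2.79, with 62 and 46 of them past 2-fold. For all 146 the 3 libraries at 6 h lay wholly above or wholly below the 3 libraries at 2 h, which was also the case for 20.7% of all genes. The falls included a calcium channel subunit (Cacna1c), a netrin receptor (Unc5c) and a regulator of G protein signalling (Rgs4). The rises included Id3, an inhibitor of transcription factors, the metallothionein Mt1 and the small heat shock protein Hspb1. An unadjusted p below 0.05 was reached by 3291 genes, where 870.1 would be expected if no gene changed. The median log2 change over all genes was 0.00.

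**Figure D1:**
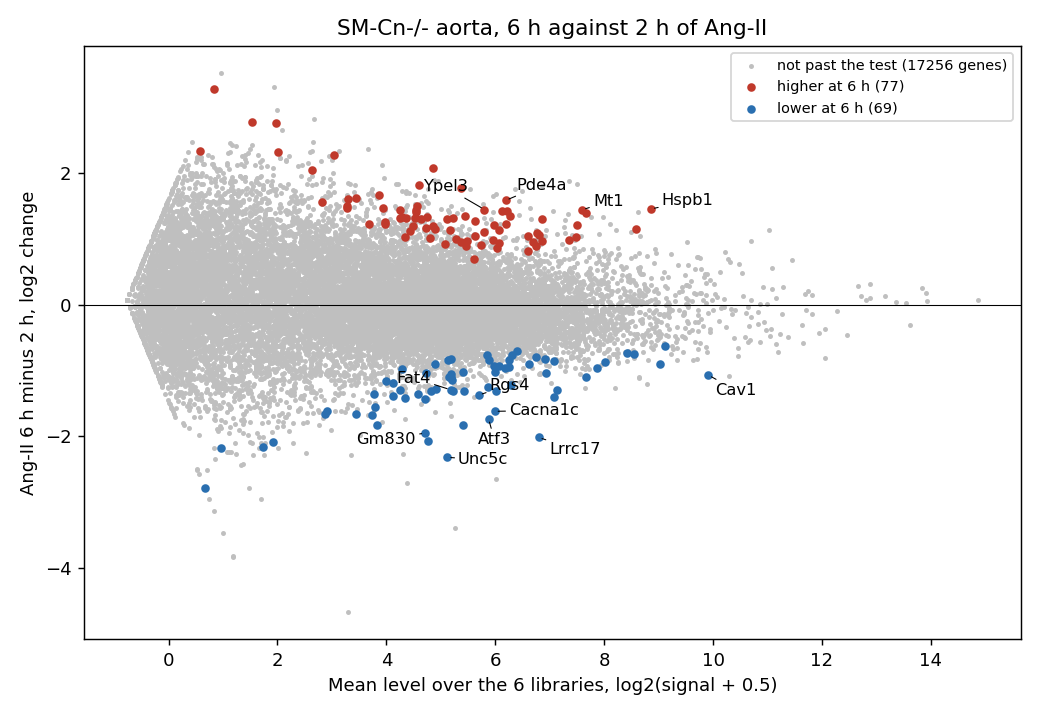
Each point is one of the 17402 genes, with the mean level over the 6 SM-Cn-/- libraries on the horizontal axis, as log2(signal + 0.5), and the log2 change from 2 h to 6 h on the vertical axis. The 77 genes higher at 6 h (red) and the 69 lower at 6 h (blue) lie on either side of 17256 genes that did not pass the test (grey), several of which changed by as much or more at low levels.

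The smallest adjusted p belonged to Cacna1c, which encodes the pore-forming subunit of the L-type calcium channel through which depolarised arterial smooth muscle takes up calcium. The gene lies at chr6:118587240-119196418 on the minus strand (GRCm38). Its signal was 97.7, 119 and 117 at 2 h and 44.5, 37.5 and 27.2 at 6 h, a log2 change of -1.62 (SE 0.18, limma adjusted p = 8.8e-05). Each 6 h library held less than any 2 h library. Cacnb2, an auxiliary subunit of the same channels, fell from 31.2, 30.3 and 36.9 to 18.5, 5.80 and 15.4 (-1.42, adjusted p = 0.048).

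Other falls shared that separation of the libraries. Unc5c, at chr3:141465216-141834924 on the plus strand, encodes a netrin receptor and fell from 81.4, 81.8 and 68.9 to 23.3, 14.7 and 9.89 (-2.32, SE 0.34, adjusted p = 0.0037). Rgs4 encodes a regulator that speeds the shut-off of Gq and Gi signalling, and it went from 85.3, 101 and 66.5 at 2 h to 42.0, 28.0 and 27.2 at 6 h (-1.37, adjusted p = 0.0040). At 2 h Rgs4 was already under its untreated SM-Cn-/- level of 120, 146 and 105. Untreated Unc5c, at 47.4, 66.0 and 47.1, lay below its 2 h level and above its 6 h level. Rgs5, a relative of Rgs4 abundant in arterial muscle, measured 1843, 1941 and 1689 at 2 h and 1554, 792 and 518 at 6 h, which did not pass the test (-1.08, adjusted p = 0.058).

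Cell-surface and matrix genes were also among the falls. Lrrc17, a secreted leucine-rich repeat protein, measured 213, 233 and 223 at 2 h and 75.8, 48.8 and 44.2 at 6 h (-2.02, adjusted p = 0.0073). Fat4, a giant protocadherin, went from 54.6, 59.2 and 54.9 to 26.3, 24.1 and 18.2 (-1.29, adjusted p = 0.0042), and is named here after its values were seen. Both were lower in each 6 h library than in any 2 h library. Adamts9, a secreted protease that cleaves proteoglycans, fell by 1.28 on the log2 scale (adjusted p = 0.0090). Ncald, a neuronal calcium sensor, fell by 2.07 (adjusted p = 0.0074), and Nr3c2, the mineralocorticoid receptor that binds aldosterone, fell by 1.66 (adjusted p = 0.031). Cav1, which builds caveolae and was also chosen after its values were seen, measured 1590, 1535 and 1118 at 2 h and 896, 589 and 559 at 6 h (-1.07, adjusted p = 0.031). Gm830, a noncoding transcript that overlaps another gene on the opposite strand, fell by 1.95 (adjusted p = 0.0040), and without stated strand-specific counting its reads cannot be told from those of that gene.

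One early gene of the immediate early class fell. Atf3, a stress-induced transcription factor of the CREB/ATF family, measured 124, 71.8 and 136 at 2 h and 40.6, 35.6 and 22 at 6 h (-1.73, SE 0.28, adjusted p = 0.0067). All 3 libraries at 6 h lay below the untreated range of 45.5 to 78.0. Of the 38 measured genes of the immediate early list, Atf3 was the only one called, and the list's median change was 0.07. Junb at 1.67, 1.96 and 0.889 and then 8.95, 8.67 and 3.3, and Ier2 at 4.42, 4.80 and 10.4 and then 13.3, 16.6 and 16.8, were higher in each 6 h library without passing the test (adjusted p = 0.063 and 0.064). Fos (19.2, 15.9 and 13.8, then 19.6, 14.4 and 17.5) and Nr4a1 (51.7, 45.7 and 62.6, then 76.1, 68.4 and 60.2) overlapped between the times.

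Among the rises, Ypel3 had the smallest adjusted p. It encodes a small zinc-binding protein linked to growth arrest, lies at chr7:126776955-126780514 on the plus strand, and went from 30.5, 34.9 and 34.7 to 74.4, 90.1 and 115 (1.45, SE 0.21, adjusted p = 0.0037). Its untreated level of 43.4 to 54.5 lay between both groups. Pde4a, a phosphodiesterase that breaks down cyclic AMP, behaved in the same way, with 29.6, 52.2 and 46.8 at 2 h and 106, 116 and 162 at 6 h (1.58, SE 0.25, adjusted p = 0.0042). Atoh8, a basic helix-loop-helix transcription factor, rose from 16.7, 19.9 and 31.3 to 60.8, 67.4 and 107 (1.77, adjusted p = 0.0073). Its untreated level of 16.2 to 25.4 was that of the 2 h libraries.

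Id3, an inhibitor of basic helix-loop-helix factors and a target of BMP signalling, measured 35.0, 41.3 and 63.3 at 2 h and 105, 125 and 136 at 6 h (1.42, SE 0.27, adjusted p = 0.023). Smad6, which inhibits BMP signalling, went from 8.04, 10.9 and 10.7 to 28.2, 26.3 and 17.9 (1.23, adjusted p = 0.042). These were the 2 genes called among 29 of the TGF-beta, BMP and Id list, both upward, while the list's median change was -0.07. Bmp4, a ligand of the same pathway, measured 22.4, 30.5 and 37.1 and then 50.1, 51.7 and 60.2 without passing the test (0.86, adjusted p = 0.063). The Id3 level persisted at 24 h of Ang-II, with 117, 98.9 and 154 in the 3 SM-Cn-/- libraries.

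Mt1, a metallothionein that binds zinc and copper, rose from 89.8, 119 and 150 at 2 h to 230, 427 and 327 at 6 h (1.44, SE 0.30, adjusted p = 0.030). Untreated aortas held 32.9, 55.8 and 33.6, so each step was upward, and the level at 24 h was 148, 193 and 138. Mt2, its neighbour and close relative, changed by 1.29 without passing the test (adjusted p = 0.056). Hspb1, a small heat shock protein that binds actin, measured 203, 199 and 544 at 2 h and 748, 854 and 711 at 6 h (1.45, SE 0.31, adjusted p = 0.031), from 113, 118 and 76.7 untreated. Replicate 3 at 2 h lay far above the other 2 h libraries for this gene. Further rises of over 2-fold were those of Prodh (1.82), which starts proline breakdown, Tfeb (1.61), a regulator of lysosomal genes, Bax (1.50), a pore-forming promoter of apoptosis, and Aldh1a1 (1.23), which makes retinoic acid. Lrg1 (2.27) rose from signals of at most 5.41.

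Several of the largest rises rested on few reads. Gm44503 had 0, 0 and 0 reads at 2 h and 52, 67 and 5 at 6 h, and Epha5 had 1, 11 and 2 reads and then 24, 41 and 52. Gm44503 spans Dyx1c1 and Ccpg1 on the same strand, so its reads may have been divided with theirs, and no fold is given for it.

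**Figure D2:**
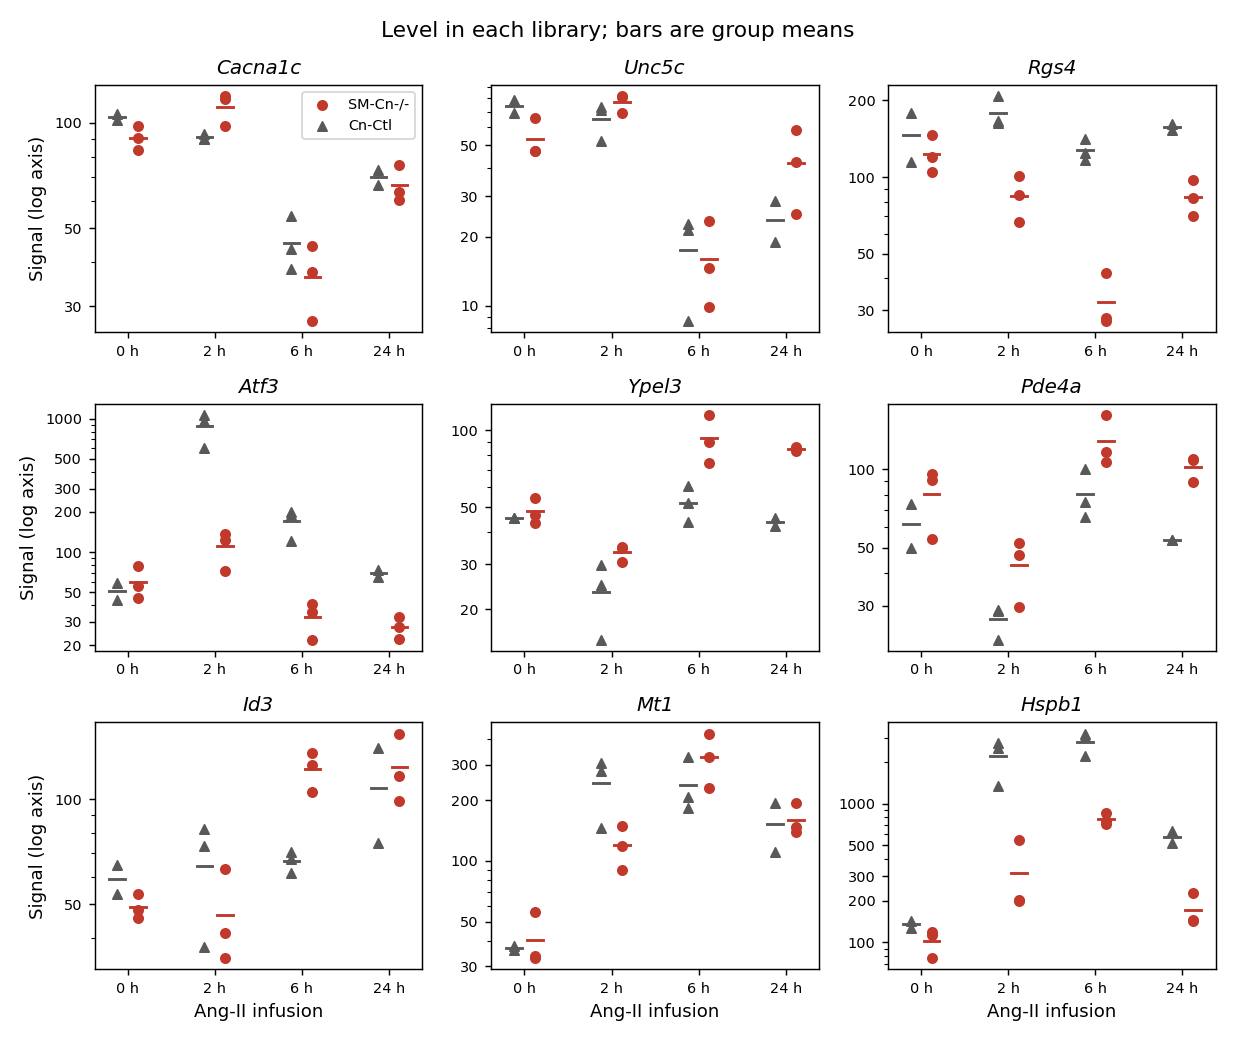
Each panel shows the signal of one gene (log axis) by time of Ang-II infusion, with one point per library for SM-Cn-/- (red circles) and Cn-Ctl (grey triangles) and bars at the group means. Cacna1c, Unc5c, Rgs4 and Atf3 were lower in the SM-Cn-/- libraries at 6 h than at 2 h, and Ypel3, Pde4a, Id3, Mt1 and Hspb1 were higher, with no overlap of the 3 and 3 libraries.

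One of the larger falls (Atf3) and one of the clearest rises (Ypel3) each carry the core letters of the cyclic AMP response element. Mt1 carries letters that match a loose form of the metal response element. Sequences before these 3 genes are shown for that reason. Each is the RefSeq promoter window of 250 bases before to 50 after the annotated start in GRCm38.p6, printed 5′ to 3′ on the gene's strand. Capitals mark TGACG on either strand (CGTCA when it lies on the opposite strand) in the first 2, and TGCNCNC on the gene's strand or its reverse complement in the last.
Atf3, chr1:191183284-191183583, minus strand: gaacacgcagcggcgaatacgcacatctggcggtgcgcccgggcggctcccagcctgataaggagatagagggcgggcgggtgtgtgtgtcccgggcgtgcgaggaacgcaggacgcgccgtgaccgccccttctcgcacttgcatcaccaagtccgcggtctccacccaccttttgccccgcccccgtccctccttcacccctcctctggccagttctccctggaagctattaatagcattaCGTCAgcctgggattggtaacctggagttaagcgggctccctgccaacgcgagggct
Ypel3, chr7:126776713-126777012, plus strand: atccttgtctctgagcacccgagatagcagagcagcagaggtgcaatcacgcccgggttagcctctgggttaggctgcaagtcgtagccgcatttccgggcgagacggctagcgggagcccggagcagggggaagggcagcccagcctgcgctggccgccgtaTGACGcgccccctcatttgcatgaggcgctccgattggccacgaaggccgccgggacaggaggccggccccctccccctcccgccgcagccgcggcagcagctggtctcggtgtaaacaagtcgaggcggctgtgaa
Mt1, chr8:94178839-94179138, plus strand: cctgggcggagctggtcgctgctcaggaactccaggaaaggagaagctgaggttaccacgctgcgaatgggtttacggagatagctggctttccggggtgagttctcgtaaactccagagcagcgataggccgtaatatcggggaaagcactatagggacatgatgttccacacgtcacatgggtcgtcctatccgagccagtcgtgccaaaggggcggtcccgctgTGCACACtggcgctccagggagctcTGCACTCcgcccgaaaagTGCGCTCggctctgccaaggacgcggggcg

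Over the genes with a RefSeq window, 55 of the risen and 50 of the fallen genes matched, beside 11810 of all measured genes, with 1 start taken per gene and 1 chromosome not used. TGACG on either strand was in 32.7% of the risen, 42.0% of the fallen and 29.5% of all windows. TGCNCNC, used here as a loose form of the metal response element, was in 60.0%, 64.0% and 58.5%. GGAAA, the core that NFAT binds, was in 56.4%, 60.0% and 59.5%. The full palindrome TGACGTCA, which contains TGACG, was in 1.82% of the risen windows, none of the fallen and 3.01% of all. TGANTCA, which AP-1 binds, was in 3.64%, 2.00% and 5.38%, and the E-box CACGTG was in 7.27%, 10% and 9.63%. For GGAAA and TGCNCNC most windows of any kind held the letters. These matches describe letters in a window and were not tested as sites.

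The number of called genes moved strongly with single libraries. Leaving out 1 library at a time gave 9 genes without 2 h replicate 1, 7 without 2 h replicate 2, 10 without 6 h replicate 2 and 10 without 6 h replicate 3. It gave 575 without 2 h replicate 3 and 1086 without 6 h replicate 1. Called in each of these 6 fits were 5 genes, Unc5c, Gm830, Cacna1c and Fat4 downward and Ypel3 upward, and Rgs4 was called in 5. In simulated counts with 100 genes changed 2-fold and 100 changed 4-fold in this comparison, the test recovered 27% and 76% of them. The changed genes were drawn from those with a mean signal of at least 5. The simulated libraries held no shift by GC content or length.

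GC content moved with the direction of change. The longest transcripts had a median GC content of 58.8% in the 77 risen genes and 46.5% in the 69 fallen genes, against 48.7% in the 17364 genes with a reference transcript. Their median length was 2358 bases in the risen and 4103 bases in the fallen genes, against 3120.5 bases in all. After the dependence of each library on GC content and length was removed, an alternative chosen after the data were seen, 85 genes were called, 30 higher and 55 lower in place of 77 and 69. Of the 146 genes, 60 stayed called, 21 risen and 39 fallen, and all 146 kept their direction. Cacna1c (-1.58, adjusted p = 2.2e-05), Unc5c (-2.05, adjusted p = 0.0046), Atf3 (-1.74, adjusted p = 0.0059), Pde4a (1.29, adjusted p = 0.0085), Mt1 (1.25, adjusted p = 0.031), Id3 (1.09, adjusted p = 0.031) and Ypel3 (0.85, adjusted p = 0.031) were among them. Hspb1 (0.59, adjusted p = 0.21), Smad6 (0.64, adjusted p = 0.27) and Lrg1 (1.52, adjusted p = 0.11) were not. Calls were also lost for Bax (0.68, adjusted p = 0.099), Tfeb (0.95, adjusted p = 0.11), Rrad (0.82, adjusted p = 0.068), Cacnb2 (-1.12, adjusted p = 0.15), Nr3c2 (-1.42, adjusted p = 0.055), Idi1 (-0.99, adjusted p = 0.10), Lmcd1 (0.86, adjusted p = 0.080), Bcl6 (-0.91, adjusted p = 0.077) and Pi16 (0.88, adjusted p = 0.063). The part of GC content in the calls that were lost was not tested further.

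**Figure D3:**
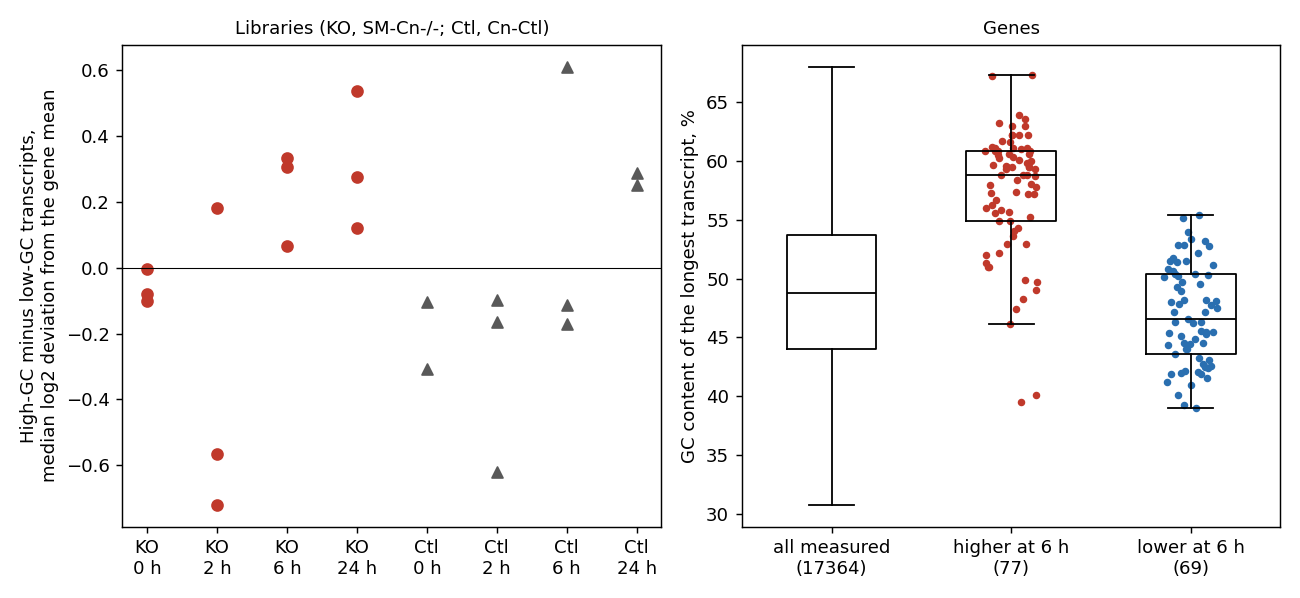
Left, for each of the 22 libraries (circles SM-Cn-/-, triangles Cn-Ctl), the median log2 deviation from the gene mean of high-GC transcripts minus that of low-GC transcripts. Right, GC content (%) of the longest transcript of all measured genes and of the genes higher and lower at 6 h (boxes are quartiles and median, points are genes), where the medians are 48.7%, 58.8% and 46.5%.

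A later rise of the early response was looked for with genes chosen in other mice. In WT aortas 434 genes were raised over 2-fold by 2 h of Ang-II against untreated WT aortas (limma adjusted p below 0.05), and 423 of them were measured in SM-Cn-/- aortas. Their median log2 change from 2 h to 6 h in SM-Cn-/- aortas was -0.13, with quartiles of -0.51 and 0.30, beside 0.00 for all genes. Of the 423, 2 were called higher at 6 h (Mt1 and Hspb1, 0.473% of the list against 0.442% of all genes). Called lower were 7 (1.65% against 0.397%): Atf3, Adamts9, Otud1, Bcl6, Slc39a14, Cyth3 and Abi1. Bcl6, a transcriptional repressor, went from 92.4, 92.7 and 86.9 to 53.1, 39.2 and 42.5, around its untreated level of 31.1 to 61.0. The remaining 414 genes did not pass the test in either direction.

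Library by library, the median of this list over the untreated SM-Cn-/- mean was 0.80, 0.62 and 0.72 at 2 h, 0.58, 0.63 and 0.40 at 6 h and 0.20, 0.10 and 0.08 at 24 h. The 2 h and 6 h values overlapped, and those at 24 h were the lowest. In Cn-Ctl aortas the untreated mean rests on replicates 2 and 3, because the study discarded the remaining replicate for its deviation from them. Against that mean, the median of the list in Cn-Ctl aortas was 1.8, 1.86 and 1.58 at 2 h and 0.99, 1.07 and 1.27 at 6 h. Thus no SM-Cn-/- library at 6 h reached the lowest Cn-Ctl library at either time. Against untreated SM-Cn-/- aortas, 88 of the 423 genes were called higher at 2 h and 73 at 6 h, where 0.839% and 1.32% of all genes were. Of these genes 47 were called at both times and 26 at 6 h but not at 2 h, while the rest of the 88 were called at 2 h only. A call at only one of the times is not a called change between them. In Cn-Ctl aortas the list fell from 2 h to 6 h by a median of 0.65, with 89 genes called lower (1.04% of all genes were) and none called higher (0.23% of all were). Over the list, the 6 h minus 2 h change in SM-Cn-/- minus that in Cn-Ctl had a median of 0.55.

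**Figure D4:**
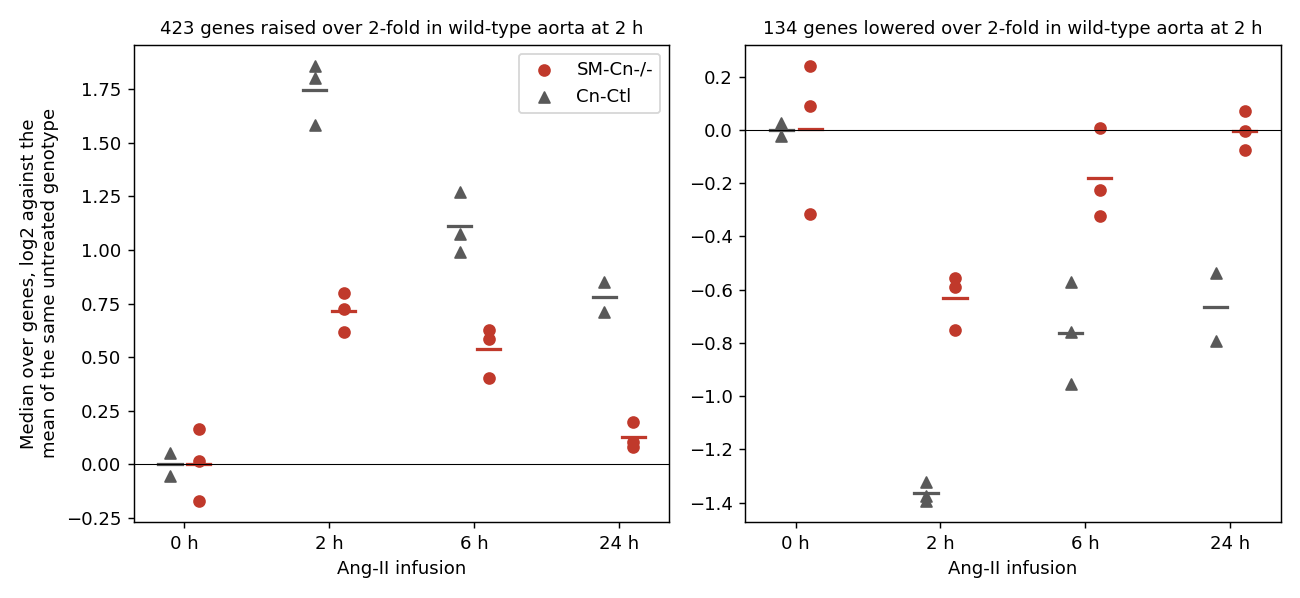
Each point is one library, and its height is the median over the listed genes of the log2 level against the mean of untreated aortas of the same genotype, at 0, 2, 6 and 24 h of Ang-II (red circles SM-Cn-/-, grey triangles Cn-Ctl, bars are group means). For the 423 genes raised in WT aortas at 2 h (left), the SM-Cn-/- libraries at 6 h (0.40 to 0.63) were not above those at 2 h (0.62 to 0.80). For the 134 genes lowered in WT aortas (right), the SM-Cn-/- libraries moved from -0.75 to -0.56 at 2 h up to -0.33 to 0.01 at 6 h.

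Genes lowered in WT aortas at 2 h were closer to their untreated level at 6 h. All 134 such genes were measured, with a median change from 2 h to 6 h of 0.44 in SM-Cn-/- aortas. Called higher were 7 (5.22% against 0.442% of all genes), namely Pde4a, Tmem200b, Slc25a27, Proser3, Rrad, Smad6 and Cxxc5, and 1 was called lower (Nrep). With GC content and length removed, Pde4a, Slc25a27 and Nrep kept their calls. Not kept were those of Tmem200b (limma adjusted p = 0.085), Proser3 (adjusted p = 0.11), Rrad (adjusted p = 0.068), Smad6 (adjusted p = 0.27) and Cxxc5 (adjusted p = 0.11). Rrad, a small GTPase that restrains L-type calcium channels, went from 12.8, 11.1 and 24.8 to 35.0, 36.3 and 45.3 (1.31, adjusted p = 0.028). Per library, the median of the 134 genes against untreated aortas was -0.75, -0.56 and -0.59 at 2 h and -0.33, -0.23 and 0.01 at 6 h, without overlap. In Cn-Ctl aortas the list's median was -1.42 at 2 h against untreated and 0.53 from 2 h to 6 h. All medians of this list given here were taken without removing GC content and length.

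Genes that the study names were followed singly. Ier3 and Gja1 are transcripts whose regulation by Ang-II it reports. Ptgs2 appears there only as a PCR probe, and Smad2 for the activation and silencing of its protein. Ier3, a regulator of cell survival, measured 81.7, 49.5 and 103 at 2 h and 74.4, 98.8 and 57.1 at 6 h, with a change of 0.00. Gja1, the gap junction protein connexin 43, measured 169, 127 and 150 and then 98.7, 115 and 88.7 (-0.55, adjusted p = 0.17), where Cn-Ctl aortas fell by 1.50 (adjusted p = 0.00046). Ptgs2, the inducible prostaglandin synthase, measured 70.2, 84.8 and 46.6 and then 28.2, 19.4 and 14.1 (-1.70, adjusted p = 0.087). Its 6 h libraries lay in the untreated range of 12.5 to 29.2. Smad2, a mediator of TGF-beta signalling, changed by -1.12 (adjusted p = 0.12). None of these genes was higher in all 6 h libraries than in all 2 h libraries.

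Of the other pathway lists, most had no called gene in SM-Cn-/- aortas between 2 h and 6 h, or 1. In the smooth muscle contractile list (25 genes) Cacna1c fell and the median change was -0.03. In the list for angiotensin, endothelin and G protein signalling (23 genes) Rgs4 fell and the median was -0.03. Calcineurin and NFAT genes (19) had a median of -0.38 and 1 gene called lower. The matrix lists leaned downward with few calls. Hyaluronan and matricellular genes (20) had a median of -0.50 and no call, collagens and elastic fibre genes (26) -0.20 and no call, and matrix proteases and inhibitors (19) -0.24 with Adamts9 as the one fall. Lox, which crosslinks collagen and elastin, measured 347, 245 and 238 and then 173, 135 and 94.9 (-1.06, adjusted p = 0.074).

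Stress and metabolic lists held at most 2 calls each. The NRF2 and metal response list (19) held the rise of Mt1 and the fall of the zinc importer Slc39a14 (-0.95), with a median of -0.06. The glucocorticoid list (24, median 0.25) held the rise of Mt1 and the fall of Nr3c2, and the growth arrest and p53 list (20, median 0.02) the rise of Bax. Idi1, an enzyme of isoprenoid synthesis, fell in the cholesterol list (25, median -0.21), and Lmcd1, a LIM domain protein, rose in the actin and adhesion list (33, median 0.04). The STAT3 and acute phase list (21, median 0.62) held the rise of Lrg1 and the fall of Bcl6. The clock list (20) had a median of 0.21 and 1 gene called higher. No gene was called in the lists for unfolded protein stress (28, median -0.24), cytokines (16, 0.00), NF-kB (18, 0.02), MAP kinase feedback (21, -0.23), myc and ribosome biogenesis (29, -0.17), glycolysis (27, 0.14), cell cycle (28, 0.09), interferon (28, 0.00) or prostanoids (16, 0.07). At an unadjusted level 3291 genes passed, so an absent call does not show an absent change. Among 83 cytosolic ribosomal protein genes, which are short and have many processed copies in the genome, 6 were called higher and none lower (median 0.21). Of all genes, 0.442% were called higher and 0.397% lower. The 6 were Rplp1, Rps26, Rps29, Rpl36, Rpl35 and Rps28. With GC content and length removed, Rplp1 (limma adjusted p = 0.056) and Rpl35 (limma adjusted p = 0.28) lost the call and the others kept it. By edgeR none of the 6 was called.

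In Cn-Ctl aortas, from separate libraries, the 146 genes mostly moved the same way. Between 2 h and 6 h their median change was 0.54 for the 77 risen genes, with 73 above 0, and -0.75 for the 69 fallen genes, with 66 below 0, where 49.8% of all genes were above 0. Called higher in Cn-Ctl aortas were 5 of the 77, where 0.23% of all genes were, and called lower were 25 of the 69, where 1.04% of all genes were. The change was smaller in Cn-Ctl than in SM-Cn-/- aortas for 76 of the 77 and 58 of the 69, a direction that choosing the genes in SM-Cn-/- aortas favours. With GC content and length removed, 70 of the 77 and 61 of the 69 had the same direction in Cn-Ctl aortas, where 58.0% of all genes were above and 42.0% below 0. Unc5c fell in both genotypes (-2.32 and -1.97), as did Lrrc17 (-2.02 and -1.88), Ncald (-2.07 and -1.96) and Atf3 (-1.73 and -2.36). Pde4a rose in both (1.58 and 1.56). For Id3 the Cn-Ctl change was 0.12 and for Mt1 it was -0.01, yet neither difference between genotypes passed its test (limma adjusted p = 0.64 for both).

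The difference of the change between genotypes was called for 1 gene, 0.00575% of those tested. An unadjusted limma p below 0.05 was reached by 1103 genes, where 870.1 would be expected if no gene differed. The gene was Bag3, a cochaperone that works with Hsp70 in the turnover of damaged filamin. Its signal in SM-Cn-/- aortas was 154, 128 and 170 at 2 h and 109, 109 and 88.7 at 6 h. In Cn-Ctl aortas it was 591, 742 and 570 at 2 h and 117, 118 and 175 at 6 h, around 104 and 97.9 untreated. The difference of the log2 changes was 1.67 (SE 0.26, limma adjusted p = 0.042), and the change within SM-Cn-/- aortas alone did not pass the test (-0.56, adjusted p = 0.13). The call was lost under quantile scaling (adjusted p = 0.15), by edgeR (adjusted p = 0.083) and in 10 of the 12 fits that left out 1 library of either genotype at 2 h or 6 h, with adjusted p-values of 0.0044 to 0.30 over those 12 fits. The median SE of this difference over all genes was 0.54, against 0.38 for the change within SM-Cn-/- aortas.

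Bag3 belonged to a list of 28 heat shock and cochaperone genes. In SM-Cn-/- aortas the list's median change was -0.16, with Hspb1 called higher and none called lower. In Cn-Ctl aortas the median was -0.68, with 13 called lower (1.04% of all genes were) and none higher (0.23% of all were). Hspa1b, an inducible Hsp70, measured 167, 71.7 and 188 and then 79.8, 111 and 86.9 in SM-Cn-/- aortas, and 3268, 3295 and 2310 and then 151, 158 and 289 in Cn-Ctl aortas. Its difference between genotypes was 3.42 (SE 0.59, adjusted p = 0.066), and its reads are uncertain because Hspa1a is nearly identical. Dnajb1, an Hsp40 cochaperone, had a difference of 2.21 (adjusted p = 0.22).

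**Figure D5:**
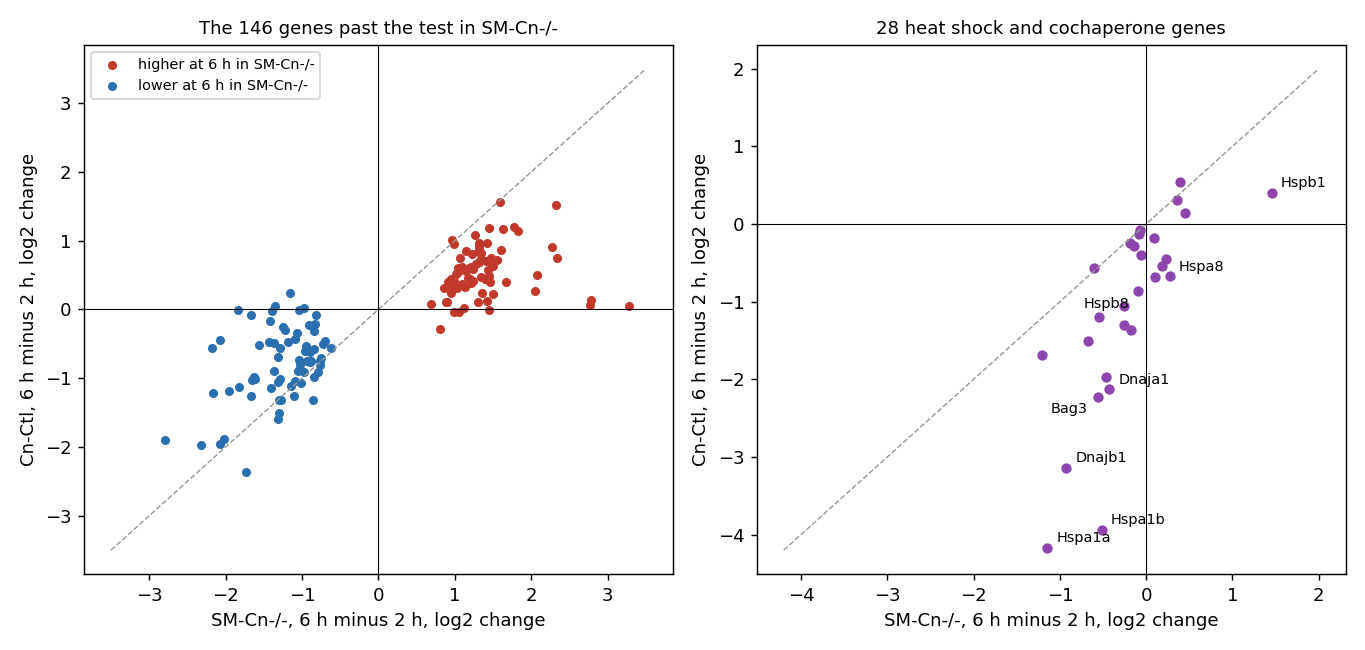
Log2 change from 2 h to 6 h in SM-Cn-/- aortas (horizontal) against that in Cn-Ctl aortas (vertical), with the dashed line at equal change. The 77 genes higher (red) and 69 lower (blue) in SM-Cn-/- aortas lie mostly on the same side of 0 in Cn-Ctl aortas (left), and of the 28 heat shock and cochaperone genes (right) several, including Hspa1a, Hspa1b, Dnajb1 and Bag3, lie far below the line, with Bag3 alone past the test of the difference.

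Against untreated SM-Cn-/- aortas, the 77 risen genes had a median of -0.44 at 2 h, 0.82 at 6 h and 0.68 at 24 h. The 69 fallen genes had medians of 0.40, -0.79 and -0.22. The 2 h and 6 h values share libraries with the comparison that chose the genes, while the 24 h libraries do not. At 24 h, 71 of the 77 lay above and 51 of the 69 below the untreated mean, where 49.5% of all genes lay above it. With GC content and length removed, these were 55 of the 77 (median 0.30) and 47 of the 69 (median -0.15). Of all genes, 48.0% then lay above and 52.0% below. For 65 of the 77 and 54 of the 69 the untreated mean lay between the 2 h and 6 h means, which choosing the genes for a large difference between those times favours. At 2 h, 2 of the 77 were called below untreated aortas, where 0.138% of all genes were, and 8 of the 69 above, where 0.839% of all genes were. Of the 77, 21 were called above untreated aortas at 6 h without being called at 2 h, where 1.32% of all genes were called above at 6 h, and 23 of the 69 below, where 0.701% of all genes were called below. In WT aortas at 24 h against 2 h, 53 of the 76 risen genes measured there were above 0. Below 0 were 59 of the 68 fallen genes, where 7324 of all 14992 genes were above 0. Of the risen genes, 24 were called higher and 11 lower there, and of the fallen genes 5 higher and 40 lower. Of all 14992 genes, 2393 were called higher and 2740 lower.

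In bulk RNA a lower share of a cell type and less RNA per cell cannot be told apart, so markers of the cell types in the wall are given beside these results. Smooth muscle markers (8 genes) summed to 25482 to 32042 in the 2 h libraries and 23475 to 29349 at 6 h, with none called. Endothelial markers (10) summed to 790 to 971 and 702 to 1479, with none called, and fibroblast markers (10) to 3487 to 3653 and 3130 to 5304, with Pi16 called higher. Macrophage markers (10) summed to 242 to 273 at 2 h and 301 to 395 at 6 h without overlap. C1qa, the first chain of complement C1q, rose from 11.2, 12.6 and 17.5 to 24.6, 56.0 and 39.0 (1.44, adjusted p = 0.031), and C1qb and C1qc did not pass the test. Apoe, which macrophages and other cells secrete and which was chosen after its values were seen, rose by 1.40 (adjusted p = 0.034). With GC content and length removed neither call was kept, at 0.77 for C1qa (adjusted p = 0.19) and 0.80 for Apoe (adjusted p = 0.10).

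Markers of blood, fat and striated muscle also leaned upward at 6 h with no gene called. Striated muscle markers (12) summed to 94.4 to 104 and 110 to 234, erythroid markers (6) to 159 to 365 and 287 to 634, and adipocyte markers (9) to 821 to 1455 and 1398 to 2541. Neutrophil markers (4 of the 9 listed were measured) summed to 4.32 to 7.39 and 8.01 to 16.9, lymphocyte markers (8) to 6.14 to 12 and 9.75 to 21.8, and nerve markers (8) to 272 to 285 and 189 to 272. No measured marker was at 0 reads in all 6 libraries. The part of these cells in the 146 changes was not tested.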

How the data were processed

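Aortic poly(A) RNA was sequenced on the Genome Analyzer IIx from pools of 3 aortas, with a lowest RNA integrity number of 7. Per the submitters' processing notes, reads were handled with Bowtie 0.12.7 and RSEM 1.16 on GRCm38. The authors deposited a normalized signal for 17402 genes in 22 libraries of the genotype experiment and for 15399 genes in 18 libraries of the WT and cyclosporin A experiment. From the values, this signal is the read count plus 0.5 divided by a scaled library size. In the genotype experiment, 100% of values came out as whole reads within a tolerance of 0.01, and the reads recovered per library were 2.73 to 10.25 M. Columns were normalized within each table, so tests were made within a table only.

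The members and the gene lists were chosen with earlier results of these data known. limma 3.58.1 (R 4.3.3) was fitted with an intensity trend to log2(signal + 0.5), with 8 group means over the 22 libraries and Benjamini-Hochberg adjustment over all 17402 genes. Sharing 1 spread among the groups makes the 3 against 3 comparison rest on all libraries. For single genes an exact permutation test of 3 against 3 cannot go below 0.1, so none is given. The p-values of limma measure the spread between pools. Pairs of replicates differed by a chi-square per degree of freedom of 6.17 to 31.7 over genes, so none counted as 1 library. Counting error covers only part of this spread.

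The WT list came from WT 2 h against untreated WT, fitted on its own table (adjusted p below 0.05, over 2-fold). Named genes were the calcineurin subunits, genes named in the study, and up to 20 largest rises and 20 largest falls. These rises and falls came from genes past the test with a mean signal of at least 5 in one group and no overlap. Up to 6 members per list were added. So were up to 10 genes by the difference between genotypes and up to 10 by the rise from untreated. Genes outside this rule are marked as chosen after their values were seen. Genes called in list counts are named as part of the count. Coordinates, lengths and GC content were taken from GENCODE M21 (GRCm38).

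Alternatives were quantile and median-ratio scaling, pseudocounts of 1 and 0.1, a filter on low signal, protein-coding genes only, only the groups compared, no intensity trend, leaving out each library, the replicate number as a block, and edgeR 4.0.16 (quasi-likelihood) and DESeq2 1.42.0 on recovered reads. Removal of GC content and length (alone and with the block) and edgeR on the 2 groups alone were added after the data were seen. The test was checked on simulated counts for all 17402 genes, in which 7 unchanged genes were called between 6 h and 2 h. In the same counts 9 unchanged genes were called for the difference between genotypes. Some genes are not reported here.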

Additional observations from a re-analysis of the deposited data

Results flagged for a closer look

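The change of Bag3 from 2 h to 6 h differed between the genotypes by 1.67 on the log2 scale (SE 0.26, limma adjusted p = 0.042), in a test of the interaction of genotype and time that no other gene passed. Bag3 fell by 2.23 in Cn-Ctl aortas, where all 3 libraries at 6 h lay below all 3 at 2 h. It changed by -0.56 in SM-Cn-/- aortas, whose 3 libraries at 6 h also lay below the 3 at 2 h. With GC content and length removed, an alternative added after the data were seen, the change in SM-Cn-/- aortas was called (-0.79, limma adjusted p = 0.030). The difference between genotypes was then 1.56 (adjusted p = 0.015). The Bag3 difference was not called under quantile scaling, without the intensity trend, by edgeR and in most fits that left out a library. In simulated counts the same test called 9 unchanged genes.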

How the results depend on the processing

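The 146 genes of the SM-Cn-/- comparison became 17 when only its own 6 libraries were fitted, 33 without the intensity trend, 77 (41 higher, 36 lower) by edgeR on recovered reads, 11 by edgeR on the 2 groups alone, 684 (389 higher, 295 lower, 140 shared) by DESeq2, which left 6078 adjusted p-values as NA, and 85 with GC content and length removed. Unadjusted p-values below 0.05 numbered 3077 by edgeR and 3281 by DESeq2. The count ranged from 7 to 1086 when 1 library was left out. It was 146 to 204 under both scalings, both pseudocounts, the signal filter and protein-coding genes only, and 108 past 2-fold. The cause of these moves was not tested. The difference between genotypes, 1 gene, was called for 0 genes under quantile scaling, 0 without the intensity trend, 0 by edgeR (1008 at an unadjusted p below 0.05), 3 with a pseudocount of 1 and 12 by DESeq2 (1083 unadjusted), and for 0 to 2 genes when 1 library was left out.

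With the replicate number as a block, 416 genes were called (202 higher, 214 lower), all 146 among them, and 3 for the difference between genotypes. Combined with GC content and length removed, the replicate block gave 183. Same-numbered libraries at 2 h and 6 h deviated together with correlations of 0.39, -0.08 and 0.29 over 7759 genes. The best partner at 6 h was replicate 1 for 2 h replicate 1 and replicate 3 for 2 h replicate 3. For 2 h replicate 2 it was also replicate 1, so the numbers were not taken as pairs in the main fit. Whether same-numbered libraries shared their handling was not tested.

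Early genes with changes near 0 changed sign. Ier3 (0.00) was -0.018 by edgeR, -0.27 with GC content and length removed and -0.29 to 0.23 with 1 library left out. Egr1 was -0.26 with GC content and length removed and -0.33 to 0.37 with 1 library left out, and Fos was -0.034 to 0.20. The median of the genes raised in WT aortas stayed below 0 (-0.21 to -0.08 with 1 library left out), and that of the genes lowered there stayed above 0 (0.28 to 0.53), under all these settings. The shallowest library, 6 h replicate 3, held 2.73 M reads, and 10 genes were called without it.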
